A study of Mus musculus with 8 samples.

Results

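Transcripts of 49 genes of apoptosis were compared between testes of valine-treated mice and testes of control mice; valine is an essential amino acid with a branched side chain. The 49 were listed by gene name, with earlier results of these data known, and comprise the BCL2 family, cytochrome c and its partners, caspases and their inhibitors, death receptors and their adaptors, p53 with a few of its targets, and the nuclease effectors of cell death. All 49 were found among the 55414 genes of the expression table. The labels placed 4 testis samples in the valine group and 4 in the control group, and gave the treatment as their only difference. The sources used here state no strain, genotype or age, no dose, route or duration of the valine treatment, and no animal behind each sample. The p-values therefore describe the spread among these 8 samples, part of which may be technical. Total RNA of frozen testis was sequenced, and levels are in FPKM (fragments scaled by transcript length and by the fragments mapped in the library), so that levels of different genes can be set side by side. The series title names apoptosis among the effects of valine in testis, and the comparison asks how far the transcripts of the cell death machinery differed.

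Apoptosis is run by proteins that most cells already hold, and much of it is switched by cleavage, binding and release from mitochondria rather than by transcription. In the mitochondrial pathway, BH3-only proteins sense damage and free the pore formers BAX and BAK from prosurvival BCL2 proteins; cytochrome c then leaves the mitochondria, binds APAF1 and activates caspase 9. In the receptor pathway, ligands such as FASL act through FADD to activate caspase 8, and p53 feeds both pathways by raising genes such as Bbc3, Pmaip1, Bax and Fas. In the testis, germ cells die in large numbers during normal spermatogenesis, and mice that lack Bax or Bcl2l2 are infertile as males.

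The libraries were close in depth. Relative to control replicate 1, read depth was 0.866 to 0.991 in valine and 0.870 to 1.00 in control, while the absolute depth was unknown. The FPKM totals were 1027662 to 1070524 in valine, all above the 944659 to 974626 of control. Samples of the same group had rank correlations of 0.916 to 0.922, and samples of different groups 0.914 to 0.921 (Spearman's rho, across genes, which are not independent replicates). Germ cell and somatic markers of testis were present in every sample. Markers of several cell types differed between the groups. The 8 Leydig cell markers were all lower in valine and summed to 474.5 to 766.3 FPKM, against 1601 to 2269 FPKM in control. Of 9 macrophage markers 4 were lower, with sums of 48.1 to 77.5 FPKM in valine and 105.0 to 131.6 FPKM in control. Of 7 markers of stroma and matrix 5 were lower, with sums of 19.7 to 24.2 FPKM in valine and 46.3 to 79.5 FPKM in control. Of 7 endothelial markers 6 were tested and 4 were lower, with sums over all 7 of 15.9 to 17.2 FPKM in valine and 28.0 to 32.4 FPKM in control, and of 5 peritubular myoid markers 2 were lower, with sums of 29.4 to 40.1 FPKM in valine and 53.9 to 70.6 FPKM in control. Of 9 elongating spermatid markers 8 were higher, with sums of 58455 to 70759 FPKM in valine and 46039 to 48254 FPKM in control. These genes are short, with a median exon length of 894 bp, against 2595.5 bp over all tested genes. Their median difference, on the log2 scale used below, was 0.43. It was 0.31 with samples scaled to equal totals and 0.30 with a trend on exon length removed. Over all marker lists 11 genes were higher, but 3 with that trend removed and 2 with quantile normalisation. None of 9 Sertoli cell markers passed the test below, 2 of them at an unadjusted p under 0.05, with sums of 553.2 to 602.6 FPKM in valine and 557.1 to 648.0 FPKM in control. Of 8 spermatogonia markers 2 were lower, with sums of 101 to 113 FPKM in valine and 91.2 to 110 FPKM in control. Of 7 adipocyte markers 5 were tested and 1 was lower. None of 9 mitochondrial genome transcripts, taken as a sign of RNA quality, passed, and 4 had an unadjusted p under 0.05. They summed to 32874 to 35937 FPKM in valine and 29324 to 33776 FPKM in control. In whole testis, fewer cells of a type and less RNA per cell cannot be told apart.

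Few of the 49 transcripts passed the test, and their share was near that of all tested genes. The test was limma on log2(FPKM + 1) over the 22077 genes that averaged 1 FPKM or more, with Benjamini-Hochberg adjustment over all of them; differences below are valine minus control on that scale, on which changes of low genes look smaller than they are. Of the 49, 46 passed the filter, and Bcl2, Bcl2l10 and Hrk did not. The test called 4 of the 46 (8.70%), against 8.73% of all tested genes. The testis-specific cytochrome c Cyct, the BCL2 partner Bag1 and the BH3-only gene Bik were higher in valine (4.32% of all tested genes were), and the p53 target Ccng1 was lower (4.41%). The groups did not overlap for 11 of the 46 (23.9%), against 18.4% of all tested genes; 6 of them were higher in valine (8.99% of all tested genes) and 5 lower (9.39%). An unadjusted p under 0.05 was found for 15 members (32.6%), against 25.6% of all tested genes. Differences were positive in 23 and negative in 23, with a median of 0.00, beside 0.02 over all tested genes. Only 4 differed by more than 0.5 in either direction, and the largest difference was 0.62. The 95% intervals reached 0.10 to 0.69 on either side of the estimate, with a median of 0.25.

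The split by direction moved with the scaling. Once all samples were scaled to the same FPKM total, which moved the median difference of all tested genes to -0.08 and that of the members to -0.09, no member was higher (4 at an unadjusted p under 0.05) and 3 were lower, namely Ccng1, Tnfrsf1a and Xiap (limma). These 3 were 6.52% of the 46, against 10.8% of all tested genes. With quantile normalisation Bik was higher and Ccng1 lower, and 6.46% of all tested genes passed.

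**Figure D1:**
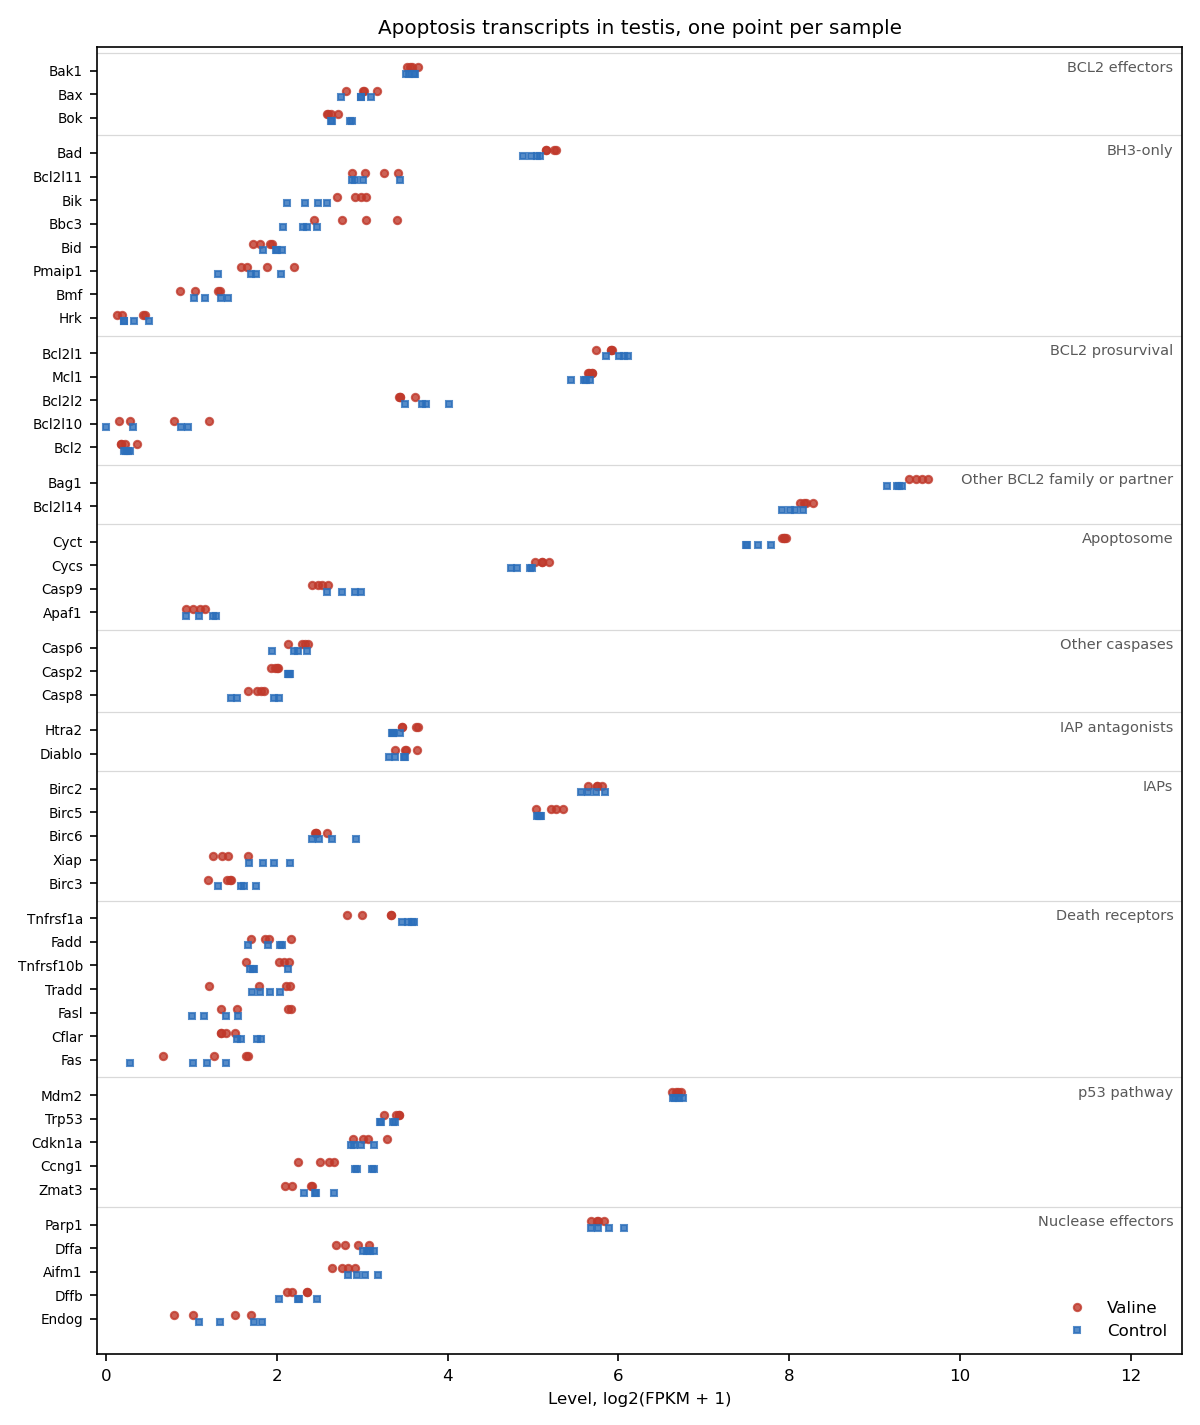
Level of each of the 49 transcripts as log2(FPKM + 1) on the horizontal axis, with 1 point per sample (red circles, 4 valine; blue squares, 4 control), grouped by role. The levels spanned a wide range, with mean values of 0.185 FPKM for Bcl2 and 671 FPKM for Bag1, and the points of the groups overlap for most genes.

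The abundance of the members was uneven. Over all 8 samples, 4 members averaged above 100 FPKM, namely Bag1, Bcl2l14, Cyct and Mdm2, and 19 of the 46 tested averaged below 5 FPKM. Levels also differed widely between genes of the same role. Bcl2l1 and Mcl1 led the prosurvival genes, at 60.6 and 48.5 FPKM over all samples, while Bcl2 itself averaged 0.185 FPKM. Bad led the BH3-only genes at 33.4 FPKM, and Birc2 led the inhibitors of apoptosis at 51.7 FPKM.

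The pore formers did not pass the test. Bax, which opens the outer mitochondrial membrane, had 6.02, 7.997, 7.09 and 7.05 FPKM in valine replicates 1 to 4 and 6.95, 6.94, 5.73 and 7.61 FPKM in control replicates 1 to 4. The groups overlapped, with means of 7.04 ± 0.809 FPKM in valine and 6.80 ± 0.781 FPKM in control (SD, n = 4 each), and the difference of 0.04 had a 95% interval of -0.21 to 0.29 (limma adjusted p = 0.849). Bak1, its partner in the same step, averaged 11.0 ± 0.474 FPKM in valine and 10.9 ± 0.384 FPKM in control, and Bok, a relative, averaged 5.22 ± 0.244 FPKM in valine and 5.77 ± 0.608 FPKM in control. None of the 3 pore formers passed limma, and none had an unadjusted p under 0.05.

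Among the BH3-only genes, whose products trigger the pore formers, 1 of 7 tested members was called, as were 8.73% of all tested genes. Bik, which in mice acts together with Bcl2l11 in the death of germ cells, had 6.53, 5.55, 6.94 and 7.24 FPKM in valine, against 4.01, 4.61, 3.35 and 5.02 FPKM in control. Every valine sample lay above every control sample. The means were 6.56 ± 0.738 FPKM in valine and 4.25 ± 0.729 FPKM in control, a difference of 0.53 ± 0.126 (SE; 95% interval 0.24 to 0.82; limma adjusted p = 0.0377). With equal totals the adjusted p was 0.0584 (limma), and the call was also lost without control replicate 1, 2 or 3 or valine replicate 1, 3 or 4 (limma adjusted p = 0.0667 to 0.0954).

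Bbc3, which encodes PUMA and is a p53 target, had the largest difference of the list and did not pass. It had 5.81, 7.25, 9.65 and 4.40 FPKM in valine and 4.11, 3.95, 4.53 and 3.198 FPKM in control. Valine replicate 4 fell inside the control range and the other 3 valine samples lay above it, and the difference was 0.62 ± 0.201 (SE; limma adjusted p = 0.0969). Without valine replicate 4 the limma adjusted p was 0.0464. Bad, a BH3-only protein controlled by survival signalling, had 34.6, 34.4, 37.6 and 36.9 FPKM in valine and 28.4, 32.1, 33.0 and 30.6 FPKM in control, with no overlap and a difference of 0.20 (limma adjusted p = 0.0820). In the annotation used here, 20.5% of the exon length of Bad overlaps Gpr137 on the opposite strand, so its value is uncertain without strand. The other tested BH3-only genes were Bcl2l11 (BIM), Bid, Pmaip1 (NOXA) and Bmf, with differences between -0.13 and 0.13 and overlapping groups. Hrk stood at 0.0930 to 0.371 FPKM in valine and 0.158 to 0.417 FPKM in control, below the filter.

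No prosurvival gene passed limma, and 1 of 3 tested had an unadjusted p under 0.05. Bcl2, the founding member, was listed at 0.132, 0.168, 0.287 and 0.133 FPKM in valine and 0.199, 0.180, 0.162 and 0.218 FPKM in control. These levels overlap and are far below 1 FPKM, so that the ratio of Bax to Bcl2, often used as an index of apoptosis, rests on a very low denominator. That ratio was 45.6, 47.6, 24.7 and 52.99 in valine and 34.9, 38.5, 35.4 and 34.9 in control. It was above the control range in 3 valine samples and below it in valine replicate 3. Against the abundant Bcl2l1 (BCL-XL), the ratio of Bax was 0.122 ± 0.0156 in valine and 0.108 ± 0.0164 in control (SD, n = 4 each).

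Bcl2l1 averaged 57.7 ± 3.60 FPKM in valine and 63.5 ± 4.69 FPKM in control, a difference of -0.14 (95% interval -0.30 to 0.02; limma adjusted p = 0.268). Mcl1, a short-lived prosurvival protein, averaged 49.9 ± 0.968 FPKM in valine and 47.0 ± 3.12 FPKM in control, with an interval of -0.05 to 0.22. Bcl2l2 (BCL-W), which keeps Sertoli and germ cells alive in mice, averaged 10.2 ± 0.727 FPKM in valine and 12.51 ± 2.04 FPKM in control, a difference of -0.26 (limma adjusted p = 0.194). The groups overlapped for all 3. Bcl2l10, a relative prominent in oocytes, ranged over 0.113 to 1.31 FPKM in valine and 0 to 0.948 FPKM in control.

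Bag1, a co-chaperone that binds BCL2 and HSP70, was the most abundant member. It had 790.4, 676, 714 and 749 FPKM in valine, against 615, 639, 624 and 564 FPKM in control, with every valine sample above every control sample. The means were 732 ± 48.8 FPKM in valine and 610.2 ± 32.6 FPKM in control, a difference of 0.26 ± 0.0605 (SE; limma adjusted p = 0.0337). The call was lost with equal totals (limma adjusted p = 0.163) and when any sample but valine replicate 2 was left out (0.0565 to 0.0866). Bcl2l14 (BCL-G), a BCL2 homologue, averaged 292 ± 13.6 FPKM in valine and 263 ± 18.3 FPKM in control, with overlapping groups and a difference of 0.16 (limma adjusted p = 0.148).

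**Figure D2:**
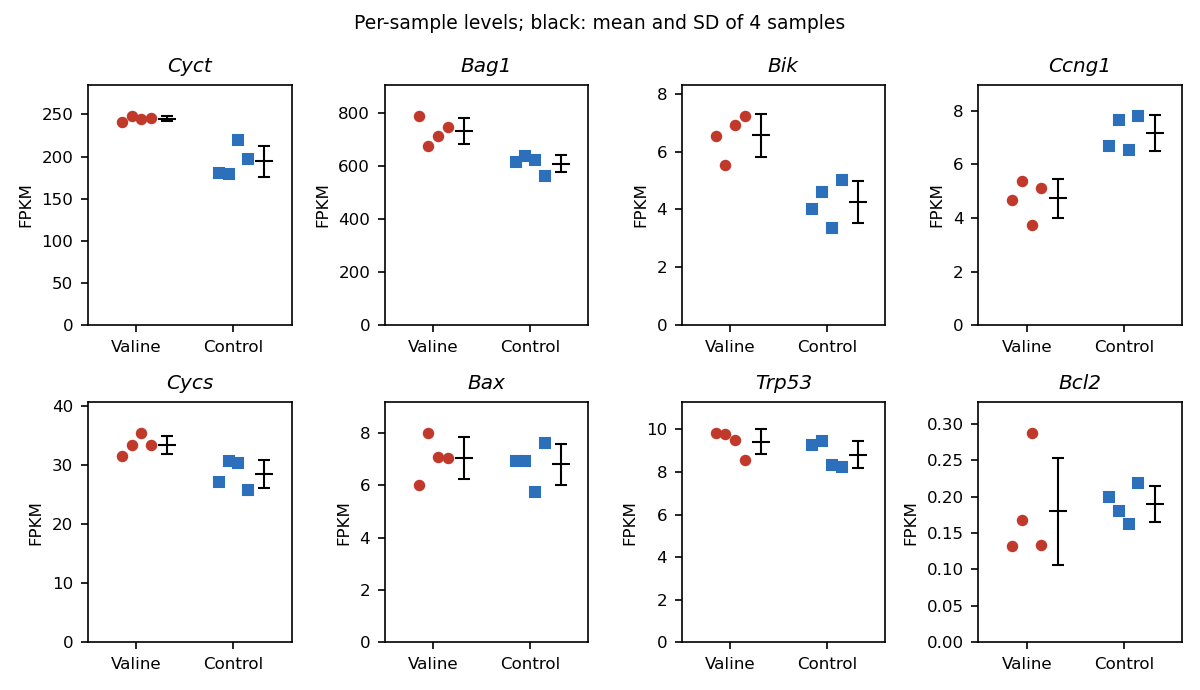
FPKM in each sample (points; 4 valine in red at left, 4 control in blue at right, black lines at the mean and SD of each group) for the called members and for members the pathway turns on. Cyct, Bag1 and Bik sit higher in all valine samples and Ccng1 lower, while Bax, Trp53 and Bcl2 overlap and Cycs does not.

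Cytochrome c comes from a pair of genes in mice, the somatic Cycs and the testis-specific Cyct, whose product is made in germ cells from meiosis onward. Both showed non-overlapping groups, and Cyct passed. Cyct had 241, 248, 245 and 245 FPKM in valine, against 181, 179.7, 219.5 and 198 FPKM in control. The valine samples were close together and all above the highest control sample. The difference was 0.34 ± 0.0656 (SE; 95% interval 0.19 to 0.49; limma adjusted p = 0.0191), from means of 245 ± 2.83 FPKM in valine and 194 ± 18.6 FPKM in control. Cycs had 31.6, 33.3, 35.4 and 33.4 FPKM in valine and 27.1, 30.7, 30.3 and 25.8 FPKM in control, a difference of 0.23 (limma adjusted p = 0.0874). Cycs has 2 named pseudogenes in GENCODE vM21 and 3 in RefSeq, and its value is uncertain where reads were shared with them.

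The ratio of Cyct to Cycs was 7.34 ± 0.307 in valine and 6.86 ± 0.780 in control (SD, n = 4 each), and its ranges overlapped. The Cyct call was lost with equal totals (limma adjusted p = 0.0593) and without control replicate 1 or 2 or valine replicate 1 or 2 (0.0508 to 0.0578). The markers of elongating spermatids, given above, were higher in the same samples. Of 9 spermatocyte markers 1 was higher and 1 lower, with sums of 1102 to 1186 FPKM in valine and 1051 to 1126 FPKM in control. Of 8 round spermatid markers 2 were higher and 1 lower, with sums of 1723 to 2084 FPKM in valine and 1918 to 2165 FPKM in control. The median differences of these lists were 0.16 and 0.14. The part of these germ cells in the Cyct difference was not tested.

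The upstream sequences of the pair are shown because their products do the same job in different cells. They are the 250 bases before the RefSeq start of each gene in assembly GRCm38.p6, 5′ to 3′ on the strand of the gene; capitals mark a CCAAT box (CCAAT on either strand) and a full cAMP response element (TGACGTCA), and the motifs do not overlap. The Cyct window is chr2:76360454-76360703 on the minus strand and the Cycs window chr6:50566570-50566819 on the minus strand.
Cyct: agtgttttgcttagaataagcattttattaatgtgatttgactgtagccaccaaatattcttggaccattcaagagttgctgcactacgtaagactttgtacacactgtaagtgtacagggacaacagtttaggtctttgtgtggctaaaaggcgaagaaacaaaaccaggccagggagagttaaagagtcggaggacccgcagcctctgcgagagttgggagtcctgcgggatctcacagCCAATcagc
Cycs: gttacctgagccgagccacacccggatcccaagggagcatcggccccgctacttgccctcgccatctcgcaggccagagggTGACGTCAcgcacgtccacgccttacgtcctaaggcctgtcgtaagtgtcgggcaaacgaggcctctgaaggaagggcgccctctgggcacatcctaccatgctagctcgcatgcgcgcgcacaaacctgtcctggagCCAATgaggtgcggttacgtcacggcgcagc
The Cyct window held a CCAAT box whose first base lay 9 bases before the start and no full cAMP response element, and the Cycs window held a CCAAT box at 31 bases and a cAMP response element at 169 bases. Of all genes with such a window, 37.5% held a CCAAT box and 1.77% a full cAMP response element, against 40.5% and 4.76% of the 42 members with a window. A gene with several windows was counted if any of them held the motif. These are matches of letters, not measured sites.

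Downstream of cytochrome c, neither the scaffold nor the initiator of the apoptosome passed. Apaf1 averaged 1.08 ± 0.140 FPKM in valine and 1.22 ± 0.246 FPKM in control. Casp9, the initiator caspase, averaged 4.69 ± 0.321 FPKM in valine and 6.07 ± 0.857 FPKM in control, a difference of -0.31 (limma adjusted p = 0.117), with overlapping groups. Within the apoptosome group the differences were thus positive for both cytochromes c and negative for Apaf1 and Casp9, of which Cycs, Cyct and Casp9 kept their sign in all alternatives and Apaf1 became 0.04 with the length trend removed.

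The 3 other member caspases, Casp2, Casp6 and Casp8, did not pass limma and none had an unadjusted p under 0.05. Casp2, a caspase of the DNA damage response, had 3.05, 2.94, 2.998 and 2.82 FPKM in valine, against 3.43, 3.42, 3.38 and 3.45 FPKM in control. Its groups did not overlap, and the difference was small, -0.16 (limma adjusted p = 0.268). Casp8, the initiator of the receptor pathway, averaged 2.42 ± 0.194 FPKM in valine and 2.40 ± 0.675 FPKM in control.

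Inhibitors of apoptosis proteins (IAPs) block caspases, and Diablo and Htra2 release that block from mitochondria. None of the 5 IAPs passed limma, and 1 had an unadjusted p under 0.05. Xiap, which binds and inhibits caspases directly, had 1.56, 1.70, 1.39 and 2.16 FPKM in valine, against 2.90, 3.45, 2.19 and 2.57 FPKM in control. All valine samples lay below all control samples, with 2.16 and 2.19 FPKM as the nearest pair, and the difference was -0.48 (limma adjusted p = 0.0788). With equal totals Xiap passed (limma adjusted p = 0.0433).

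Birc5 (survivin), which also serves cell division, averaged 36.3 ± 3.42 FPKM in valine and 32.7 ± 0.516 FPKM in control. Birc2 averaged 52.5 ± 2.42 FPKM in valine and 51.0 ± 4.36 FPKM in control. Birc3 and Birc6 had differences of -0.18 and -0.13, and all 4 of these genes had overlapping groups. The antagonist Htra2 averaged 10.8 ± 0.835 FPKM in valine and 9.40 ± 0.334 FPKM in control. Its groups did not overlap, and the difference was 0.18 (limma adjusted p = 0.174). Of its exon length, 25.6% overlaps Aup1 and 18.2% overlaps Loxl3, both on the opposite strand. Diablo (SMAC) averaged 10.4 ± 0.810 FPKM in valine and 9.73 ± 0.670 FPKM in control.

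**Figure D3:**
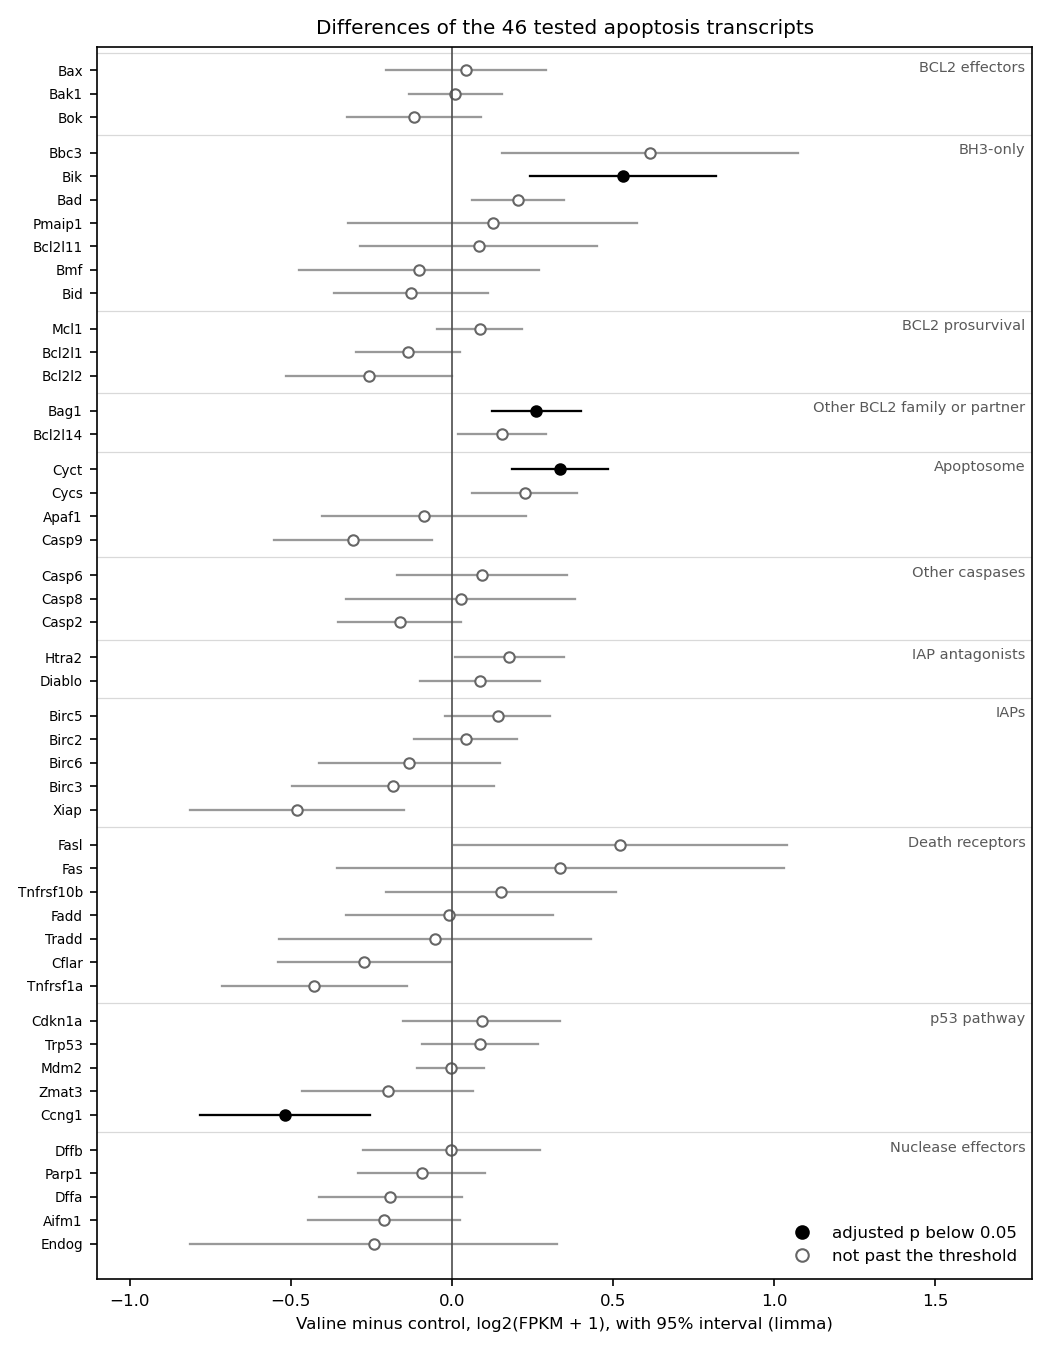
Difference of each of the 46 tested members, valine minus control on the log2(FPKM + 1) scale, with its 95% interval (lines; limma), grouped by role. Filled points mark the 4 genes past the threshold, Bik, Bag1 and Cyct to the right of zero and Ccng1 to the left.

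In the receptor pathway, none of 7 members passed limma and 3 had an unadjusted p under 0.05. Tnfrsf1a, the main receptor for tumour necrosis factor, had 9.12, 6.97, 6.09 and 9.10 FPKM in valine, against 10.1, 11.2, 11.0 and 10.6 FPKM in control. The groups did not overlap, and the difference was -0.43 (limma adjusted p = 0.0726, and 0.0278 with equal totals). Cflar (FLIP), which holds back caspase 8, averaged 1.64 ± 0.151 FPKM in valine and 2.20 ± 0.3003 FPKM in control, also without overlap, a difference of -0.27 (limma adjusted p = 0.191). Leydig, macrophage, stromal, endothelial and peritubular markers were lower in the same samples, as given above, and their part in these differences was not tested.

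Fasl, the ligand, and Fas, its receptor, varied widely between samples. Fasl had 3.497, 3.40, 1.90 and 1.54 FPKM in valine and 1.21, 1.01, 1.91 and 1.65 FPKM in control; valine replicates 1 and 2 stood above all others, and replicates 3 and 4 lay within the control range. The difference was 0.52 (95% interval 0.01 to 1.04; limma adjusted p = 0.191). Fas had 2.12, 2.17, 1.40 and 0.591 FPKM in valine and 1.26, 0.218, 1.65 and 1.03 FPKM in control, with an interval of -0.36 to 1.03, the widest of the list. The lymphocyte markers, which could carry Fasl, summed to 12.9 to 18.1 FPKM in valine and 11.4 to 14.1 FPKM in control, with 1 of 6 above the filter; most of the sum was Cd3d, and Cd8a was at 0 in every sample but valine replicate 4. The adaptors Fadd and Tradd and the receptor Tnfrsf10b had overlapping groups and differences of -0.01, -0.05 and 0.15.

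Among p53 and its targets, 1 of 5 members was called, as were 8.73% of all tested genes. Trp53 itself had 9.83, 9.76, 9.52 and 8.57 FPKM in valine and 9.25, 9.48, 8.31 and 8.23 FPKM in control. The groups overlapped, and the difference was 0.09 (95% interval -0.09 to 0.27, limma adjusted p = 0.538). Trp53 has 1 named pseudogene in GENCODE vM21 and 1 in RefSeq, and its value is uncertain where reads were shared with it. Mdm2, the ubiquitin ligase that p53 induces and that degrades it, was the most precisely measured member, at 102 ± 3.198 FPKM in valine and 102 ± 3.73 FPKM in control, with an interval of -0.11 to 0.10. Cdkn1a, the p53-induced brake on the cell cycle, averaged 7.41 ± 0.985 FPKM in valine and 6.87 ± 0.673 FPKM in control, with an interval of -0.15 to 0.34.

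Ccng1 (cyclin G1), a p53 target that works with MDM2 and a phosphatase, was the 1 member called lower. It had 4.67, 5.38, 3.74 and 5.13 FPKM in valine, against 6.68, 7.67, 6.53 and 7.81 FPKM in control. The lowest control sample was above the highest valine sample. The means were 4.73 ± 0.722 FPKM in valine and 7.17 ± 0.661 FPKM in control, a difference of -0.52 ± 0.115 (SE; 95% interval -0.78 to -0.25; limma adjusted p = 0.0306). The call held with equal totals (limma adjusted p = 0.0134) and was lost without control replicate 1, 2 or 4 or valine replicate 1, 3 or 4 (0.0514 to 0.0808). Zmat3, another p53 target, averaged 3.85 ± 0.522 FPKM in valine and 4.57 ± 0.563 FPKM in control, a difference of -0.20 (limma adjusted p = 0.324).

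Upstream windows of these p53 targets are shown because Ccng1 passed the test and the others did not. Capitals mark matches to the p53 half-site, the decamer that is repeated in a full p53 response element. It was searched by its usual degenerate letters, which read alike on both strands. A match to the half-site is not a full element. The windows are from RefSeq GRCm38.p6, on the strand of the gene: 250 bases for Ccng1 (chr11:40755287-40755536, minus), and 60 bases around the matches for Mdm2 (chr10:117710910-117710969, minus), Bax (chr7:45467065-45467124, minus) and Cdkn1a (chr17:29090881-29090940, plus).
Ccng1: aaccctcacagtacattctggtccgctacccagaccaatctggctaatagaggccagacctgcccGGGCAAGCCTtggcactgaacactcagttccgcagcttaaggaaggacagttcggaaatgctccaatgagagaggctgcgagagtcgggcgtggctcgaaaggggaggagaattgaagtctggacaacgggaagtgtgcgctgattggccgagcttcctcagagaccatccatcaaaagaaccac
Mdm2: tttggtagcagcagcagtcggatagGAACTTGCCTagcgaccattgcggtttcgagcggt
Bax: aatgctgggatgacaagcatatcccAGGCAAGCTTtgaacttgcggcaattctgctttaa
Cdkn1a: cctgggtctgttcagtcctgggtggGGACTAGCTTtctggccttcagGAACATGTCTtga
The first base of the match lay 185 bases before the start in Ccng1, 186 in Mdm2 and 201 in Bax, and 73 and 51 bases before it in Cdkn1a. A gene can have several RefSeq starts, and for Mdm2, Bax and Cdkn1a only windows with a match were shown. Such a match was found in 8 of the 42 members with a window (19.0%), namely Bax, Birc5, Bmf, Ccng1, Cdkn1a, Fasl, Mdm2 and Trp53, against 8.20% of all genes with a window. A gene was counted if any of its windows matched. Of all 32851 windows, from 27025 genes, 7.13% held a match. Of these 8, only Ccng1 passed limma, and the match shows nothing about binding.

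The nuclease effectors, which cut DNA or respond to the cuts, all had differences below zero, with a median of -0.19 and with Dffb at 0.03 under quantile normalisation and 0.0083 with the length trend removed, and none passed limma or had an unadjusted p under 0.05. Parp1, which senses DNA breaks and is cleaved by caspases, averaged 53.1 ± 2.28 FPKM in valine and 57.0 ± 6.998 FPKM in control. Aifm1 averaged 5.93 ± 0.536 FPKM in valine and 7.04 ± 0.855 FPKM in control, and Dffa, the inhibitor of the caspase-activated DNase, averaged 6.41 ± 0.857 FPKM in valine and 7.42 ± 0.303 FPKM in control. Endog and the DNase gene Dffb had differences of -0.24 and -0.00. The exons of Endog overlap those of Spout1 over 35.7% of their length.

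Across the members, longer genes tended to have lower differences (Spearman's rho -0.437 between the difference and exon length, across 46 genes, which share their libraries), as did all tested genes (rho -0.339). The 3 members called higher, Cyct, Bag1 and Bik, have exon lengths of 655, 1349 and 1591 bp, all below the median of 2595.5 bp of all tested genes. Ccng1, called lower, has 3512 bp. When a smooth trend on length was removed from each sample, no member passed limma, 12 of 46 had an unadjusted p under 0.05, and 6.04% of all genes tested in that way passed. Ccng1 then had a difference of -0.48 (limma adjusted p = 0.0501) and Cyct one of 0.21 (limma adjusted p = 0.0952); the limma adjusted p was 0.148 for Bag1 and 0.0731 for Bik.

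**Figure D4:**
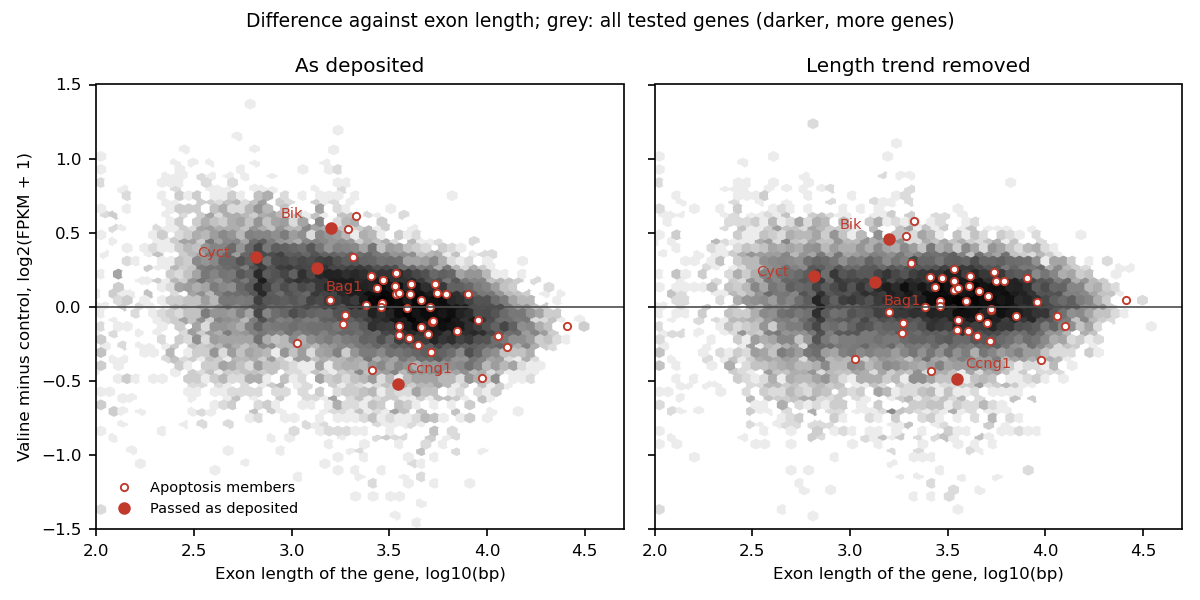
Difference of each tested gene (valine minus control, log2(FPKM + 1)) against the log10 of its exon length in bp, as deposited (left) and after a smooth length trend was removed from each sample (right); grey shading counts all tested genes, red points are the members, and genes beyond 1.5 in either direction are not drawn. As deposited, the grey cloud and the members slope down with length (rho -0.339 and -0.437), and Cyct at 655 bp lies at the short end.

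The wider pathway was described with 111 further genes of apoptosis and p53 signalling. Of these, 86 were tested, 5 were higher and 4 were lower in valine (10.5%, against 8.73% of all tested genes), with a median difference of -0.06. After rescaling to equal totals none was higher (4 at an unadjusted p under 0.05) and 15 were lower (limma). Of all 22077 tested genes 363 were then higher and 2022 lower, or 10.8% in either direction. That rescaling moved the median difference to -0.15 for these 86 genes and to -0.08 for all tested genes. With 1 sample left out, 1 to 4 were higher and 2 to 4 lower, with the fewest higher without control replicate 1 or valine replicate 1.

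Among 18 tested BCL2 family and mitochondrial partners, 3 were higher, as were 4.32% of all tested genes. Vdac2, a channel of the outer mitochondrial membrane that holds BAK, had 270.4, 261, 290.4 and 266.5 FPKM in valine, against 219.5, 230.1, 229.6 and 242 FPKM in control (difference 0.24; limma adjusted p = 0.0224). Its relative Vdac3, which sperm need for movement, averaged 145 ± 6.71 FPKM in valine and 124 ± 3.91 FPKM in control (difference 0.22; limma adjusted p = 0.0279). Tmbim4, an antiapoptotic membrane protein of the Golgi, averaged 86.8 ± 3.40 FPKM in valine and 70.9 ± 4.66 FPKM in control (difference 0.29; limma adjusted p = 0.0214). All 3 calls were lost with equal totals (limma adjusted p = 0.0941 for Tmbim4, 0.139 for Vdac2 and 0.142 for Vdac3). They were also lost without control replicate 1 or valine replicate 1 (up to 0.0824), and 1 or more of them without control replicate 2 or 3 or valine replicate 3 or 4. None of 5 tested inhibitors passed limma, and 1 had an unadjusted p under 0.05.

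Of 12 tested genes of death receptor signalling, 2 were lower, as were 4.41% of all tested genes. Tnfrsf21 (death receptor 6) had 2.20, 2.52, 1.98 and 2.08 FPKM in valine, against 3.71, 3.79, 3.78 and 3.95 FPKM in control. The groups were far apart for their spread, with a difference of -0.59 ± 0.0961 (SE; limma adjusted p = 0.0105), and the call held in all 15 alternatives in which the gene was tested. Tnfrsf1b, the second receptor for tumour necrosis factor, had 0.907, 0.954, 1.067 and 0.461 FPKM in valine, against 1.91, 2.31, 1.82 and 1.85 FPKM in control (difference -0.70; limma adjusted p = 0.0272), and lost its call when any sample but valine replicate 3 was left out (0.0502 to 0.0747). The Leydig, macrophage, stromal, endothelial and peritubular markers given above were lower in the same samples, and their part in these differences was not tested.

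Of 33 tested regulators and targets of p53, 1 was higher and 2 were lower, against 4.32% and 4.41% of all tested genes. Negative differences were found in 24, with a median of -0.13 beside 0.02 over all tested genes. The median was -0.24 with equal totals and -0.05 with the length trend removed, beside -0.08 and 0.04 over all tested genes. Ei24 (PIG8), a p53-induced protein of the endoplasmic reticulum that also takes part in autophagy, had 8.81, 8.77, 8.85 and 8.13 FPKM in valine, against 11.5, 11.8, 12.0 and 11.7 FPKM in control. Its difference was -0.40 ± 0.0619 (SE; limma adjusted p = 0.00864), and the call held in all 16 alternatives. Fdxr, a p53 target that also supplies electrons to the steroid-making enzymes of Leydig cells, averaged 27.0 ± 2.44 FPKM in valine and 39.1 ± 6.15 FPKM in control (difference -0.51; limma adjusted p = 0.0388); its call was lost when any sample but control replicate 4 was left out (0.0529 to 0.103). The Leydig cell markers were lower in the same samples, and their part in the Fdxr difference was not tested. Rps27l, a ribosomal protein paralog induced by p53, averaged 93.9 ± 5.35 FPKM in valine and 74.5 ± 4.47 FPKM in control. Its difference was 0.33 (limma adjusted p = 0.0168), and its exon length is 816 bp. Rps27l lost its call with equal totals (limma adjusted p = 0.0648), quantile normalisation (0.0627) and the length trend removed (0.0935).

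Of 12 tested genes of execution and clearance, 1 was higher, as were 4.32% of all tested genes. Xkr8, the scramblase that exposes phosphatidylserine on dying cells once caspases cut it, had 55.65, 52.9, 55.2 and 52.96 FPKM in valine, against 47.6, 45.97, 48.6 and 44.8 FPKM in control. All valine samples lay above all control samples (difference 0.21; limma adjusted p = 0.0324), and with equal totals the limma adjusted p was 0.292. The call was lost when any sample but control replicate 3 was left out (limma adjusted p = 0.0569 to 0.095).

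**Figure D5:**
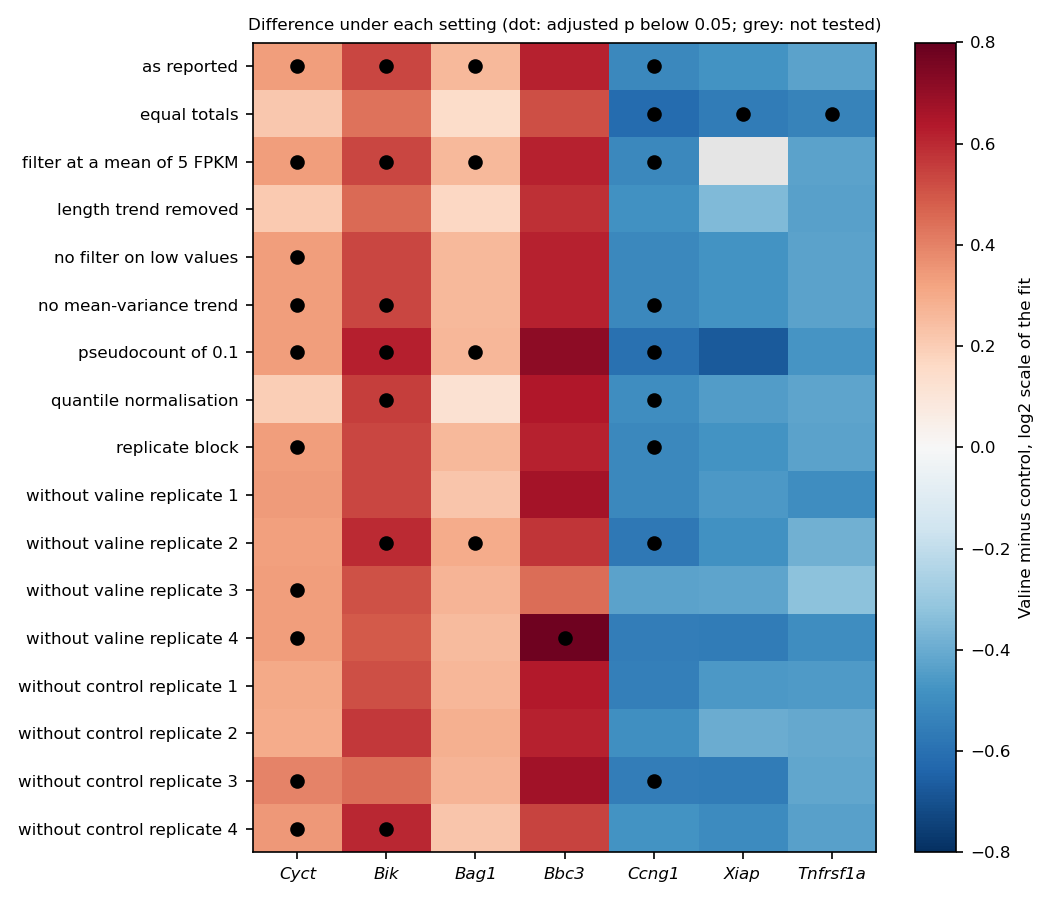
Difference (valine minus control on the log2 scale of the fit; colour, red above zero and blue below) of the 7 members called in at least 1 analysis (columns), in the analysis as reported and in each of the 16 alternatives (rows); a dot marks a limma adjusted p below 0.05 and a grey cell a gene that was not tested there. Colours keep their direction down each column, while no gene has a dot in every row.

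Because 1 library often decided a call, the calls without each library are given here. With control replicate 1, control replicate 2 or valine replicate 1 left out, no member passed limma (9, 10 and 11 at an unadjusted p under 0.05). Without control replicate 3, Cyct and Ccng1 passed; without control replicate 4, Bik and Cyct; without valine replicate 2, Bik, Bag1 and Ccng1; without valine replicate 3, Cyct; and without valine replicate 4, Bbc3 and Cyct. No called member passed in all 16 alternatives. Cyct passed in 9, Ccng1 in 8, Bik in 6 and Bag1 in 3, and the direction of these 4 was the same in all 16. Control replicate 1 stood apart in some marker sums. Adipocyte markers summed to 90.2 FPKM there and 30.9 to 39.7 FPKM in the other controls. Immediate early genes, which mark handling, summed to 31.5 FPKM, against 21.2 to 23.0 FPKM. Mitochondrial genome transcripts summed to 29324 FPKM, against 30547 to 33776 FPKM. The part of these in the calls was not tested.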

How the data were processed

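The authors deposited FPKM values for 55414 Ensembl genes in 8 testis samples, 4 valine and 4 control. Libraries were made with a TruSeq kit from Trizol-extracted RNA, per the labels' protocols, and reads were aligned with HISAT2 to GRCm39, per the submitters' processing notes. The sources used here name no quantifier, strand setting or annotation release. FPKM holds no counts, so no intervals from counting error were computed, and absolute depth was unknown; relative depth came from whole-number steps among low values.

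Symbols from GENCODE vM21 and RefSeq named 52081 genes. Values were analysed as log2(FPKM + 1) with limma 3.58.1 in R 4.3.3, over genes averaging 1 FPKM or more. The model held treatment only and used a mean-variance trend; tests were two-sided, and the Benjamini-Hochberg threshold was 0.05. The fit was tested on simulated data. The members and all lists were chosen with earlier results of these data known, and the members' direction and counts are descriptions of the list. All members could be named, with values in every sample for those past the threshold and for Bax, Bcl2, Trp53, Cycs and Cyct; of each further pathway list, up to 4 genes past the threshold by size, or the 2 of smallest p where none passed, could be named. Values in every sample of the other members and genes shown were picked after they were seen.

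Alternatives were a pseudocount of 0.1, no filter, a filter at 5 FPKM, equal totals, quantile normalisation, no mean-variance trend, removal of a length trend (loess span 0.3; exon lengths from GENCODE vM21 for 98.2% of tested genes), the replicate number as a block, and each sample left out. Promoter windows are of RefSeq GRCm38.p6, an older assembly than the authors', and 42 of the 49 members had one. Exon overlaps also touched Bak1, Bax, Bcl2, Bcl2l14, Bcl2l2, Bid, Birc6, Casp9, Cdkn1a, Diablo, Fadd and Parp1. Their values share that uncertainty, though the overlap of Parp1 is 0.1% of its exon length. Bax (12.2%, with Gm45808), Bcl2l2 (13.3%, with Gm20521) and Diablo (19.3%, with Gm49027) overlap a gene on the same strand. Knowing the strand would not resolve those overlaps. None of the 4 called members was touched. 1 result of the further pathway genes is not reported here.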

Additional observations from a re-analysis of the deposited data

Results flagged for a closer look

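A sample was set apart where its gap to the nearest of the other 3 samples of its group was a large share of the group's range (Dixon's criterion at 95%), which chance gives in about 1 in 20 groups. It was met in 7 of 104 groups of member levels and ratios.

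In valine, Bcl2l1 was at 52.3 FPKM in replicate 4, below the 59.2 to 59.8 FPKM of the other 3, and Birc3 was at 1.29 FPKM in replicate 2, below 1.68 to 1.76 FPKM. Bcl2l2 was at 11.3 FPKM in valine replicate 3, above 9.82 to 9.90 FPKM, and Birc6 was at 5.02 FPKM in valine replicate 4, above 4.45 to 4.49 FPKM. In control, replicate 3 was above the others for Htra2 (9.90 FPKM against 9.18 to 9.29 FPKM) and Tnfrsf10b (3.37 FPKM against 2.22 to 2.34 FPKM), and replicate 2 had a Bax to Bcl2 ratio of 38.5 against 34.9 to 35.4. Bcl2l1, Birc3, Bcl2l2, Birc6, Htra2 and Tnfrsf10b did not pass the test of valine against control (limma) with or without the sample named, and the ratio was not tested. Of these 6 genes, Bcl2l2 and Htra2 had an unadjusted p under 0.05 with all samples.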

How the results depend on the processing

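For 59 named genes, 921 values were recomputed: 780 kept their direction and side of the threshold, 94 lost a call, 5 gained one and 42 changed sign; the cause was not tested except where stated. With equal totals, 363 of all genes were higher and 2022 lower, against 954 and 974; members 0 and 3, against 3 and 1; further pathway genes 0 and 15, against 5 and 4; and 7 markers higher, against 11. With the length trend removed, members were 0 and 0 and markers 3 higher. Without a filter, which tests more genes, 568 genes were higher, members were 1 and 0, further pathway genes 2 lower and markers 4 higher. Without the mean-variance trend, 503 genes, 1 further pathway gene and 7 markers were higher. With quantile normalisation, 398 genes, 1 member, 0 further pathway genes and 2 markers were higher. With a filter at 5 FPKM, which tests fewer genes, 2 further pathway genes were lower.

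Samples of the same replicate number deviated together in only some pairs (correlations -0.0167, -0.0401, 0.104 and 0.111), and 3 of 8 samples correlated best with their own number, so the numbers were not taken as pairs. With the replicate block, 581 genes were higher and 489 lower, 1 member (Cyct) and 2 further pathway genes were higher.

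Leaving out 1 sample gave 381 to 795 higher and 461 to 802 lower genes, 0 to 2 and 0 to 1 members, 1 to 4 and 2 to 4 further pathway genes, and 7 to 9 and 24 to 28 markers.

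Changes of sign concerned small differences. With equal totals they became -0.0600 for Bax, -0.10 for Bak1, -0.0205 for Bcl2l11, -0.0294 for Mcl1, -0.0551 for Casp8, -0.0203 for Diablo, -0.0729 for Birc2, -0.0192 for Trp53 and -0.0110 for Cdkn1a. With the length trend removed they became -0.0345 for Bax, -0.0045 for Bak1, 0.0354 for Apaf1, 0.0444 for Birc6, 0.0390 for Fadd, 0.0707 for Mdm2 and 0.0083 for Dffb. With quantile normalisation they became -0.0222 for Birc2, 0.0304 for Fadd and 0.0265 for Dffb. With 1 sample left out, ranges were -0.0267 to 0.106 for Bax, -0.0148 to 0.0299 for Bak1, -0.0048 to 0.24 for Pmaip1, -0.0080 to 0.21 for Bcl2l11, -0.0672 to 0.12 for Casp8, -0.0026 to 0.0914 for Birc2, -0.0932 to 0.0603 for Fadd, -0.17 to 0.15 for Tradd, -0.0211 to 0.0175 for Mdm2 and -0.0788 to 0.0703 for Dffb. With 4 samples a group and a median interval of 0.25 on either side for the members, smaller differences were mostly not detectable. The limit varied by gene, as the members' intervals reached 0.10 to 0.69 on either side. Among the further pathway genes, Vdac2 (0.24), Vdac3 (0.22) and Xkr8 (0.21) were called. The intervals were not adjusted over genes, and the adjusted threshold was stricter. Larger differences, such as -0.48 for Xiap and 0.62 for Bbc3, also did not pass in the analysis as reported.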
